A study of Homo sapiens with 12 samples.

Results

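Giant coding regions are those of 3000 or more codons, stop codon included, in the transcript tables of a ribosome profiling study of girolline. Members were taken by length alone: a coding region qualified at 3000 codons, rows with identical counts in all 4 libraries of a kind were merged, and rows with a mean level of at least 1 CPM (counts scaled to a common library size) were kept. This left 185 merged rows of 59419 in the RNA-seq libraries, 182 of 58845 in the monosome libraries and 154 of 39193 in the disome libraries, of which 152 were tested. Before that filter there were 228, 260 and 185 giant rows, so 43, 78 and 31 of them had too few reads to be described. The longest member, the mucin MUC16, had 14508 codons. Isoforms of a gene share most of their reads, and the rows fell into 104 runs of neighbouring rows for RNA, 97 for monosomes and 98 for disomes. A run can hold more than 1 gene. In disomes EPPK1 and PLEC shared a run, as did PRUNE2 and VPS13A. Counts and sums with 1 row per run take the row of highest mean level and leave out the others. A gene symbol was given to 93 giant transcripts, from the Ensembl transcript identifier together with the coding length. The tables themselves pair no identifier with a symbol.

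All samples were wild type cells of the HEK293T Flp-In line, derived from human embryonic kidney and carrying a recombination site for transgene insertion. Cells received the solvent DMSO (2 libraries of each kind), 1 µM girolline (1 library of each kind) or 10 µM girolline (1 library of each kind) for 2 h. From these 12 libraries, 4 were poly(A)-selected RNA-seq, 4 held footprints of single ribosomes (monosomes) and 4 held the longer footprints of 2 stacked ribosomes (disomes). The question put by the series is how girolline changes the activity of the translation factor eIF5A.

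A ribosome must hold its place through a very long series of steps to finish a giant protein. Such proteins include motors, membrane and nuclear linkers, chromatin scaffolds, ubiquitin ligases and matrix proteins. Monosome footprints count ribosomes along a coding region, and disome footprints arise where a trailing ribosome has run into a leading one. Factor eIF5A helps ribosomes form peptide bonds at difficult sequences, of which runs of proline are the best known. Girolline is a small molecule first obtained from a marine sponge.

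Total transcript counts ran from 28424272 to 42194871 in the RNA libraries, from 21570489 to 38074691 in the monosome libraries and from 3091715 to 5769026 in the disome libraries. A read can be counted for several isoforms. Levels below are CPM after trimmed-mean normalisation within a kind, given in the order first DMSO, second DMSO, 1 µM and 10 µM library. Counts are relative to each library, so fewer cells with a transcript and less of it per cell cannot be told apart, nor can a change shared by all transcripts be seen. Each dose has 1 library per kind, and the tests take its spread from the DMSO pair. Nothing in the labels tells whether the DMSO pair are independent cultures, and the p-values rest on the spread within that pair, which may be technical. "Higher" and "lower" below mean an adjusted p under 0.05 (edgeR's quasi-likelihood test, Benjamini-Hochberg over all merged rows), and changes are on the log2 scale with their standard error (SE). With 1 of the DMSO pair left out, RNA and disome changes could be tested only in a fit that joins the RNA and disome libraries, so such a value differs from the full comparison in 2 choices, and the joint fit with every library kept is given where it already moves a call.

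At 10 µM girolline the giant coding regions had fewer monosome footprints and fewer disome footprints than in DMSO. In RNA-seq few of their rows passed the test, though 167 of 185 had a change above 0. With 1 row per run, the summed monosome level of the 97 runs was 2989.4 and 3066.3 CPM in DMSO, 2622.4 CPM at 1 µM and 2419.4 CPM at 10 µM. The 10 µM sum was 79.9% of the DMSO mean. The summed disome level of the 98 runs was 6084.6 and 6802.9 CPM in DMSO, 4135.2 CPM at 1 µM and 3017.3 CPM at 10 µM, which is 46.8% of the DMSO mean. In RNA-seq the 104 runs summed to 4904.9, 5476.7, 5495.3 and 6224.5 CPM, and the 10 µM sum was 119.9% of the DMSO mean. Both dose libraries lay below both DMSO libraries in the 2 footprint sums, and above both in the RNA sum.

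**Figure D1:**
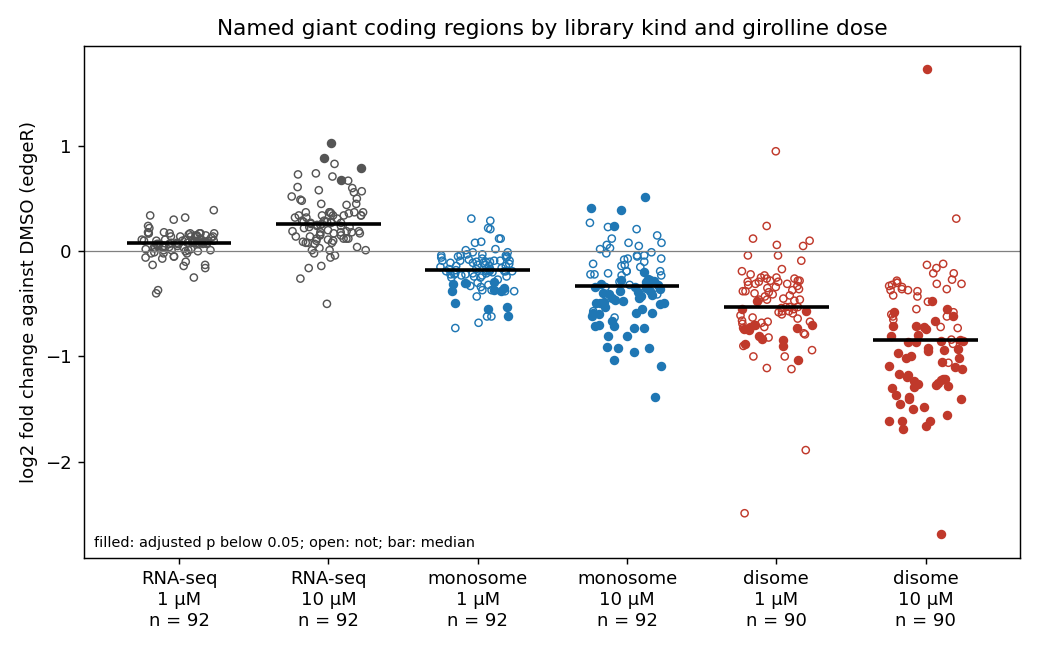
Log2 fold change against DMSO (vertical axis) of the named giant coding regions in each kind of library and at each girolline dose. Points are genes, filled where the edgeR adjusted p is below 0.05, and bars are medians, which lie at 0.26 in RNA, -0.33 in monosomes and -0.84 in disomes at 10 µM.

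In RNA-seq at 10 µM, 5 of the 185 rows were higher and 1 was lower, against 0.537% and 0.571% of all 56230 rows tested. The median change of the members was 0.25, beside -0.01 over all rows. The second DMSO library already lay above the first by a median of 0.17, and the median change was 0.18 without the first and 0.35 without the second. Above both DMSO libraries were 128 of the 185 rows, beside 35.3% of all rows. With the first DMSO library left out, 8 rows were higher and 2 lower, and with the second left out 3 were higher. DESeq2 called 2 higher and 0 lower. A similar RNA change was seen in shorter rows with at least 1 CPM. Rows from 2000 and under 3000 codons had a median change of 0.21, and 2.12% of them were higher. Those from 1000 and under 2000 codons had a median of 0.15, with 0.813% higher.

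The 5 higher rows belong to KMT2D, SPEN, EPPK1 (2 isoforms) and MUC16. KMT2D, a histone H3 lysine 4 methyltransferase (chr12:49018978-49060794, GRCh38; 5538 codons), had RNA levels of 36.6, 29.6, 34.8 and 67.7 CPM. Its 10 µM library was the highest, and the RNA change was 1.03 ± 0.19 (edgeR adjusted p = 1.63e-05). SPEN, a nuclear transcriptional corepressor (chr1:15847707-15940456, GRCh38; 3665 codons), had 119.5, 120.1, 126.1 and 192.2 CPM, a change of 0.68 ± 0.17 (edgeR adjusted p = 0.00863). Its DMSO libraries lay close together and well under the 10 µM library. MUC16, a membrane mucin, had 215, 302, 267 and 375 RNA counts, of which the last came from the shallowest RNA library, a change of 0.89 ± 0.23 (edgeR adjusted p = 0.0138). EPPK1, an epithelial cytolinker made of plakin repeats, had 139.6 and 75.3 CPM in DMSO, 98.3 CPM at 1 µM and 186.0 CPM at 10 µM. The wide gap between its DMSO libraries matters to the call, which was a change of 0.79 in the full comparison and 0.39 without the second DMSO library (edgeR adjusted p = 0.308). DESeq2 did not call EPPK1 or MUC16 in RNA, and among rows of at least 10 CPM the EPPK1 change of 0.78 was not called (edgeR adjusted p = 0.158). The lower row was uc031usr.1, a transcript of 5208 codons that was given no symbol, at 7.54, 5.1, 3.38 and 2.73 CPM. Both dose libraries lay below both DMSO libraries in this row. Its neighbour in the same run, uc031usp.2 of 5647 codons, was not called in RNA.

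In the monosome libraries at 10 µM, 105 of 182 rows were lower and 9 higher, where 15.6% of all 55413 rows were lower and 16.5% higher. The median change was -0.35 over the members and 0.01 over all rows, and it stayed near -0.35 and -0.33 without the first or the second DMSO library. The DMSO libraries differed by a median of 0.03. Below both DMSO libraries were 150 of the 182 rows, beside 40.5% of all rows. Counted with 1 row per run, 53 of 97 were lower and 4 higher. DESeq2 called fewer, 26 lower and 3 higher.

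In the disome libraries at 10 µM, 91 of 152 rows were lower and 1 higher, where 15.0% of all 34612 rows were lower and 20.8% higher. The median change was -0.92 over the members and -0.02 over all rows. Below both DMSO libraries were 138 of the 152 rows, beside 42.2% of all rows. With 1 row per run, 55 of 96 were lower and 1 higher, and DESeq2 called 38 rows lower and 0 higher. Disomes relative to RNA, tested as an interaction over the RNA and disome libraries, were lower in 104 of 176 rows and higher in 1, where 7.2% of all 55626 rows were lower and 12.9% higher. The median of that difference was -1.15. In rows from 2000 and under 3000 codons with at least 1 CPM, 48.6% were lower relative to RNA and the median was -0.99.

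Among the named genes, 50 of 92 were lower and 4 higher in monosomes at 10 µM. In disomes 55 of 90 were lower and 1 higher, and in disomes relative to RNA 53 of 91 were lower and 1 higher. The groups below follow the textbook roles of the proteins. The shares of all rows given above cover every length and rows of fewer reads. Nearer in length are the rows from 2000 and under 3000 codons with at least 1 CPM. Of these, 45.0% were lower in monosomes and 53.1% in disomes, and each count can be read against those shares too.

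Many of these calls rest on the choice of test. DESeq2 gave an adjusted p for 50 of the 54 named monosome calls and made 18 of them, and for 54 of the 56 named disome calls and made 17. Among the genes described below, its monosome calls were those of SPEN, SRCAP, UBR4, CENPF, GOLGB1, HTT, FRAS1, WDFY3, VCAN, PRKDC, EPPK1, HUWE1, AHNAK, KMT2D, DYNC1H1, RNF213 and LAMA5. Its disome calls were those of MACF1, DST, UTRN, NBPF10, NBPF19, CENPF, GOLGB1, AKAP9, PRKDC, EPPK1, HUWE1, MKI67, KMT2D, SYNE2, BPTF and PCNT. Every other call at 10 µM named below for a single kind of footprint was made by edgeR alone, since DESeq2 either missed the threshold or gave no adjusted p. In disomes the joint fit with every library kept lost 7 of the 56 calls, among them VPS13A, VPS13D, SPEN, KMT2A, ALMS1 and FREM2. Within that fit 7 were missing without the first DMSO disome library and 21 without the second. Among rows of at least 10 CPM, where 39 of the 54 monosome calls could be tested, those of VPS13D, MDN1 and AKAP9 were not made.

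**Figure D2:**
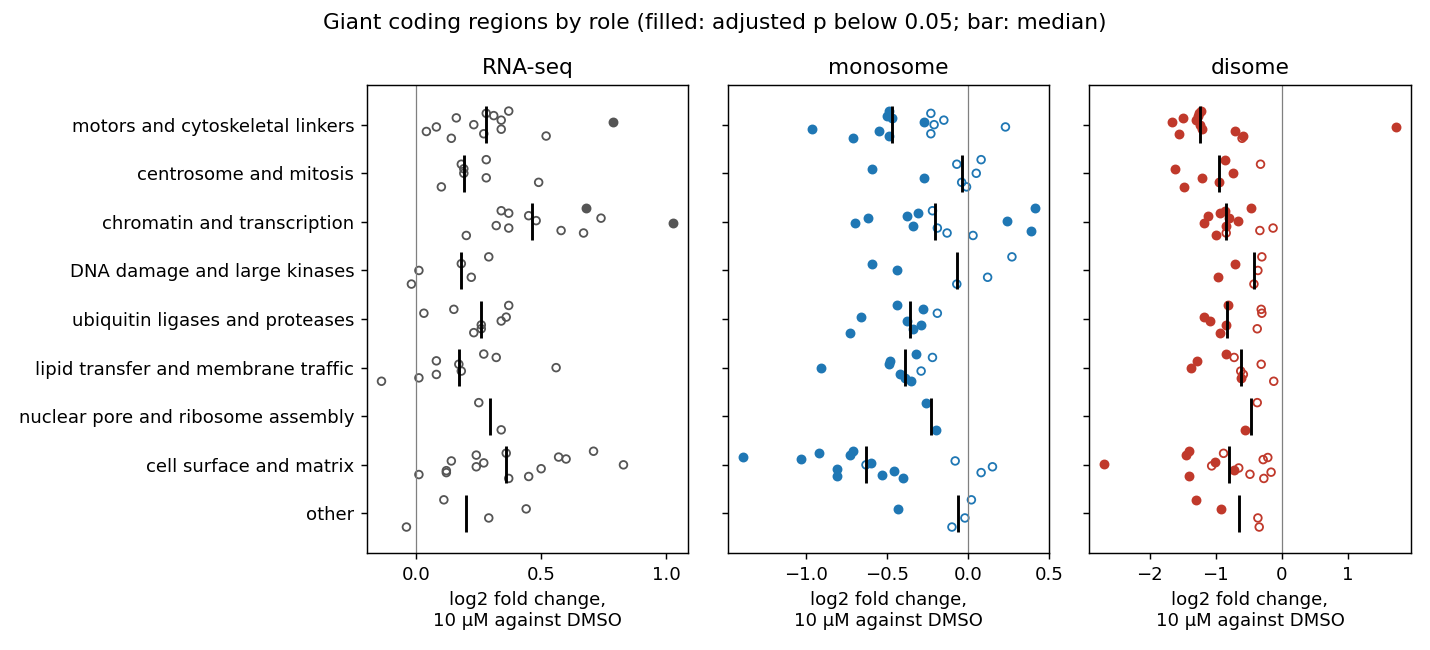
Log2 fold change at 10 µM girolline against DMSO (horizontal axis) for named giant coding regions grouped by the role of their protein, in RNA-seq, monosome and disome libraries. Filled points have an edgeR adjusted p below 0.05 and vertical bars are group medians; the surface and matrix group has the lowest monosome median (-0.63) and the motors and linkers the lowest disome median (-1.23).

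Motors and cytoskeletal linkers held 13 measured genes. In monosomes 8 were lower and 0 higher, and in disomes 11 were lower and 1 higher; their median changes were -0.47 and -1.23. DYNC1H1, the heavy chain of cytoplasmic dynein (chr14:101964573-102056443, GRCh38; 4647 codons), had monosome levels of 119.0, 131.1, 98.0 and 88.8 CPM and fell by 0.49 ± 0.07 (edgeR adjusted p = 4.3e-09). AHNAK, a scaffold protein under the plasma membrane (chr11:62433544-62546806, GRCh38; 5891 codons), had 33.6, 33.3, 22.9 and 17.2 CPM and fell by 0.96 ± 0.09 (edgeR adjusted p = 9.39e-15). In both genes each dose library lay below both DMSO libraries.

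The linkers of the nuclear envelope, SYNE1 and SYNE2, changed in disomes and not by the test in monosomes. SYNE2 (6886 codons) had disome levels of 35.7, 49.7, 29.3 and 14.7 CPM, a fall of 1.56 ± 0.26 (edgeR adjusted p = 4.14e-08). Its monosome levels were 18.8, 17.6, 17.7 and 15.5 CPM (change -0.23 ± 0.10, edgeR adjusted p = 0.0872). SYNE1 (8798 codons) had 22, 51, 35 and 19 disome counts, with a change of -1.30 ± 0.38 (edgeR adjusted p = 0.00329) that was not called without the second DMSO disome library (-1.05, edgeR adjusted p = 0.176). The spectraplakins MACF1 and DST, which bind actin and microtubules, were lower in both kinds of footprint. Their monosome changes were -0.49 and -0.50, and their disome changes -1.22 and -1.26. For DST these are values of its 5172-codon row. A 3060-codon row that may be a DST isoform was higher in monosomes, as given below. UTRN, the dystrophin relative utrophin, had disome levels of 37.6, 36.3, 29.1 and 13.0 CPM and fell by 1.5 ± 0.27 (edgeR adjusted p = 3.69e-07).

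EPPK1 had the deepest called disome fall of the group. Its disome levels were 448.0, 362.6, 241.5 and 128.3 CPM, a change of -1.66 ± 0.17 (edgeR adjusted p = 6.46e-21), against a monosome change of -0.27 ± 0.06. Both dose libraries lay well under both DMSO libraries. Relative to its RNA, the disome change of EPPK1 was -2.40 (edgeR adjusted p = 3.68e-21).

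DMD, the dystrophin gene, was the only named gene higher in disomes. Its disome levels were 1.86, 2.59, 4.51 and 7.76 CPM, from 5, 12, 18 and 37 counts, a change of 1.73 ± 0.45 (edgeR adjusted p = 8.18e-04). All of its disome and RNA counts were also held by a transcript of 618 codons in the same stretch of the table, which is 16.8% of the length of the 3686-codon row. The rise is therefore a count on that shared stretch and cannot be placed in the giant coding region at large. DESeq2 gave it no adjusted p, and it was not called without either DMSO disome library for disomes relative to RNA (1.42 and 1.94, edgeR adjusted p = 0.0925 and 0.0557).

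The centrosome and mitosis genes numbered 7. Their disome footprints were lower in 6 and higher in 0, while monosome footprints were lower in 2 and higher in 0; the medians were -0.95 and -0.04. CENPF, a kinetochore and nuclear matrix protein (chr1:214603195-214664571, GRCh38; 3115 codons), fell in both. Its monosome levels were 163.8, 173.9, 137.6 and 111.8 CPM (change -0.59 ± 0.06, edgeR adjusted p = 1.3e-12) and its disome levels 211.2, 285.4, 150.2 and 81.8 CPM (change -1.61 ± 0.18, edgeR adjusted p = 1.44e-16). The 1 µM libraries of CENPF lay between DMSO and 10 µM in both kinds. AKAP9, an anchor of protein kinase A at the centrosome and Golgi, was the other gene lower in both, by -0.27 and -1.21.

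PCNT and MKI67 had nearly level monosome values and lower disome values. PCNT, the pericentriolar scaffold pericentrin (chr21:46324156-46445769, GRCh38; 3337 codons), had monosome levels of 57.3, 55.5, 51.3 and 56.0 CPM, a change of -0.01 ± 0.07. Its disome levels were 218.6, 226.4, 132.7 and 79.9 CPM, a fall of 1.48 ± 0.19 (edgeR adjusted p = 8.87e-14). MKI67, the Ki-67 protein that coats mitotic chromosomes (chr10:128096659-128126423, GRCh38; 3257 codons), had 103.9, 98.0, 85.2 and 97.8 CPM in monosomes, a change of -0.04 ± 0.07. In disomes it had 349.1, 377.3, 248.5 and 188.7 CPM and fell by 0.95 ± 0.16 (edgeR adjusted p = 7.65e-08). CEP350 and ALMS1, both centrosomal, had disome changes of -0.86 and -0.74 beside monosome changes of 0.08 and 0.05. ASPM, a spindle pole protein, passed the test in neither kind.

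The 12 chromatin and transcription genes were split in monosomes, with 3 higher and 5 lower. In disomes 9 were lower and 0 higher, and relative to RNA 11 of the 12 had lower disomes. The median RNA change of the group, 0.46, was the highest of the role groups, with 2 of 12 called higher. KMT2D had monosome levels of 41.0, 42.4, 36.2 and 25.7 CPM and fell by 0.70 ± 0.08 (edgeR adjusted p = 5.17e-11), against its higher RNA. Its disome levels were 55.8, 57.9, 41.1 and 25.2 CPM (change -1.18 ± 0.24, edgeR adjusted p = 8.53e-06). Disomes of KMT2D relative to RNA changed by -2.16 (edgeR adjusted p = 8.24e-11).

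SPEN, SRCAP and KMT2A were the chromatin genes with more monosome footprints. SPEN had monosome levels of 64.1, 67.3, 66.4 and 87.0 CPM and rose by 0.41 ± 0.07 (edgeR adjusted p = 1.3e-06), while its disome levels of 235.0, 261.0, 198.6 and 179.1 CPM gave a change of -0.47 ± 0.17 (edgeR adjusted p = 0.0163). That disome call was not made in the joint fit with every library kept (-0.44, edgeR adjusted p = 0.0508). SRCAP, the catalytic subunit of a complex that deposits histone H2A.Z, had monosome levels of 52.1, 58.0, 58.3 and 72.2 CPM, a change of 0.39 ± 0.07 (edgeR adjusted p = 8.45e-06). KMT2A, another H3 lysine 4 methyltransferase, had 17.9, 19.5, 17.3 and 22.1 CPM, a change of 0.24 ± 0.10 (edgeR adjusted p = 0.0476) that missed the threshold with DESeq2's size factors (edgeR adjusted p = 0.0598). The disome call of KMT2A was not made in the joint fit (-0.63, edgeR adjusted p = 0.053). For all 3 genes the 10 µM monosome library was the highest of the 4. BPTF, a subunit of the NURF chromatin remodeller, had a monosome change of 0.03 and a disome change of -1.0 ± 0.20 (edgeR adjusted p = 9.46e-06).

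The 5 genes of the DNA damage and large kinase group had 2 lower in monosomes and 2 lower in disomes, with 0 higher. PRKDC, the catalytic subunit of the DNA-dependent protein kinase (4129 codons), was the most abundant named gene per codon in RNA (87.5 CPM per 1000 codons in DMSO) and in monosomes (98.5). Its monosome levels of 401.6, 409.7, 328.3 and 268.9 CPM gave a fall of 0.59 ± 0.06 (edgeR adjusted p = 1.56e-14), and its disome levels of 372.2, 373.8, 270.1 and 227.5 CPM a fall of 0.71 ± 0.16 (edgeR adjusted p = 5.15e-05). ATM, a kinase that responds to DNA double-strand breaks, was lower in monosomes (-0.44). BRCA2, which acts in homologous recombination, had a monosome change of 0.12 and a disome change of -0.97, of which the second was called by edgeR, though not without the second DMSO disome library (-0.94, edgeR adjusted p = 0.0825). SMG1, the kinase of nonsense-mediated decay, and REV3L, the catalytic subunit of DNA polymerase zeta, passed the test in neither kind.

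Ubiquitin ligases and proteases were lower in monosomes in 7 of 8 genes and in disomes in 5 of 8, with 0 higher in either. HUWE1, a HECT-type ubiquitin ligase (chrX:53532096-53686719, GRCh38; 4375 codons), had RNA levels of 241.5, 239.5, 241.6 and 308.8 CPM that did not pass the test. Its monosome levels were 162.0, 164.6, 133.8 and 103.3 CPM, a fall of 0.66 ± 0.07 (edgeR adjusted p = 1.9e-14). Its disome levels were 126.8, 134.7, 98.6 and 58.3 CPM, a fall of 1.17 ± 0.20 (edgeR adjusted p = 9.4e-08). These calls for HUWE1 held under the alternatives that could be run on them. The N-end rule ligase UBR4, MYCBP2, HERC2 and RNF213 were the other ligases lower in both kinds. DESeq2 made neither call for MYCBP2 and HERC2, and for UBR4 and RNF213 the monosome call alone. BIRC6, an inhibitor of apoptosis with ubiquitin ligase activity, was lower in monosomes only by the test (-0.28; disome -0.31), and USP34, a deubiquitinase, was called in neither.

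In the lipid transfer and membrane traffic group, 7 of 9 genes were lower in monosomes and 4 of 9 in disomes, with 0 higher. WDFY3, an adaptor for selective autophagy, had monosome levels of 8.93, 9.94, 8.1 and 5.05 CPM, a fall of 0.91 ± 0.15 (edgeR adjusted p = 8.58e-07). GOLGB1, the golgin giantin, had disome levels of 92.9, 112.2, 55.2 and 42.4 CPM, a fall of 1.28 ± 0.21 (edgeR adjusted p = 3.69e-08). The 4 bridge-like lipid carriers VPS13A, VPS13B, VPS13C and VPS13D had monosome changes between -0.42 and -0.32, all called lower by edgeR and none by DESeq2 (adjusted p from 0.175 to 0.509). In disomes VPS13D (-0.85) and VPS13A (-0.62) were called and VPS13B and VPS13C were not. The joint fit made neither disome call (edgeR adjusted p = 0.0762 and 0.0758), and without the second DMSO disome library the changes were -0.59 and -0.30. HTT, the huntingtin gene, fell by 0.49 in monosomes and had a disome change of -0.31 that was not called. RANBP2, the large nucleoporin, and MDN1, the midasin ATPase of ribosome assembly, were both lower in monosomes (-0.26 and -0.20), and MDN1 alone was called in disomes (-0.55). None of these 3 calls was made by DESeq2, and that of MDN1 in disomes was not made without the second DMSO disome library (-0.48, edgeR adjusted p = 0.179).

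Surface and matrix genes had the lowest monosome median of the role groups, -0.63, with 11 of 15 lower and 0 higher. FRAS1, an extracellular matrix protein of epithelial basement membranes (chr4:78057323-78544269, GRCh38; 4013 codons), had the largest monosome fall of any giant row. Its monosome levels were 11.5, 12.7, 10.6 and 4.63 CPM, from 265, 347, 180 and 145 counts. Its change of -1.39 ± 0.15 (edgeR adjusted p = 4.29e-13) stood beside RNA levels of 13.8, 15.0, 16.2 and 21.4 CPM. The 10 µM library was the lowest in monosomes and the highest in RNA. FAT4, a giant protocadherin of the Hippo and planar polarity pathways, had 6.4, 7.09, 5.38 and 3.32 CPM in monosomes, a fall of 1.03 ± 0.18 (edgeR adjusted p = 1.53e-06). The laminin chain LAMA5 fell by 0.81 and the basement membrane proteoglycan HSPG2 (perlecan) by 0.71 in monosomes. The endocytic receptors LRP1 and LRP2 fell by 0.81 and 0.73.

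In disomes 6 of 14 surface and matrix genes were lower and 0 higher. VCAN, the matrix proteoglycan versican, had disome levels of 56.5, 71.6, 49.9 and 32.1 CPM, from 152, 331, 199 and 153 counts, a fall of 1.01 ± 0.23 (edgeR adjusted p = 8.13e-05). Its 10 µM library lay well below both DMSO libraries, and its monosome change was -0.60. COL12A1, a fibril-associated collagen, was another of the 6, with 8, 13, 3 and 2 disome counts. Its 10 µM level was 0.419 CPM, so it passed the filter on the mean level through its DMSO libraries and is given as a description. That level is 14.6% of the DMSO level (exact interval at 95% confidence, for counting error only, 1.66% to 59.8%). Over all giant rows called at 10 µM, 1 in disomes and 2 in monosomes had a 10 µM level under the filter's 1 CPM. The protocadherins FAT1 and FAT3 and the polycystin PKD1 were called in neither kind. Of these, FAT1 had monosome levels of 38.8, 37.4, 37.0 and 36.1 CPM.

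**Figure D3:**
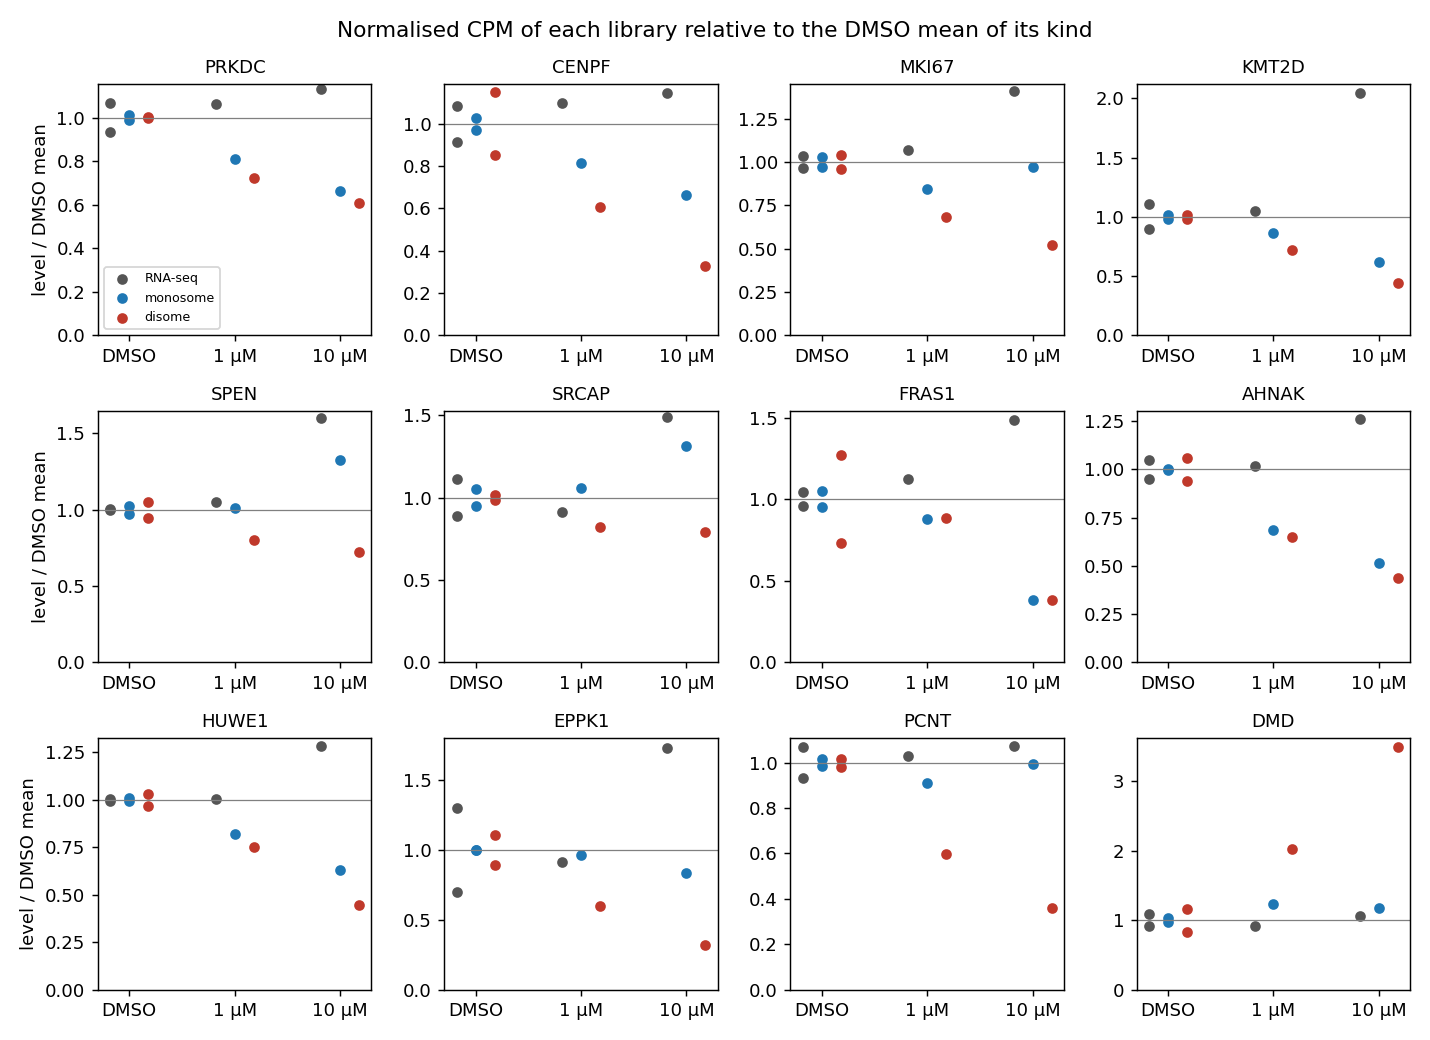
Level in each library divided by the DMSO mean of its kind (vertical axis, from 0) for 12 named giant coding regions, with RNA-seq, monosome and disome libraries in separate colours and DMSO, 1 µM and 10 µM girolline along the horizontal axis. Each point is 1 library; PCNT and MKI67 lie near their DMSO level in monosomes at 10 µM while their disome level falls, and DMD is the gene whose disome level rises.

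Monosome and disome changes could be set side by side in 90 named genes at 10 µM. Lower in both were 36, in monosomes only 13, in disomes only 17, and called in neither 19. SPEN and KMT2A were called higher in monosomes and lower in disomes, with disome calls that the joint fit did not make. The disome change was below the monosome change in 80 of the 90 genes, by a median of 0.50 on the log2 scale, and the signs were the same in 77. Across these genes the changes had a Pearson correlation of 0.43 and a Spearman correlation of 0.38, as a description over genes whose libraries are shared. The lower disome change was not confined to giant genes. Rows from 2000 and under 3000 codons with at least 1 CPM had median changes of -0.24 in monosomes and -0.74 in disomes. In rows from 1000 and under 2000 codons the medians were -0.17 and -0.55. The genes lower in monosomes and not called in disomes included HTT, FAT4, RANBP2, LRP1, LRP2 and ATM. Without the second DMSO disome library, FRAS1, RNF213 and HSPG2 had disome changes of -0.94, -0.95 and -1.39 that were not called, and without the first WDFY3 had one of -1.17.

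**Figure D4:**
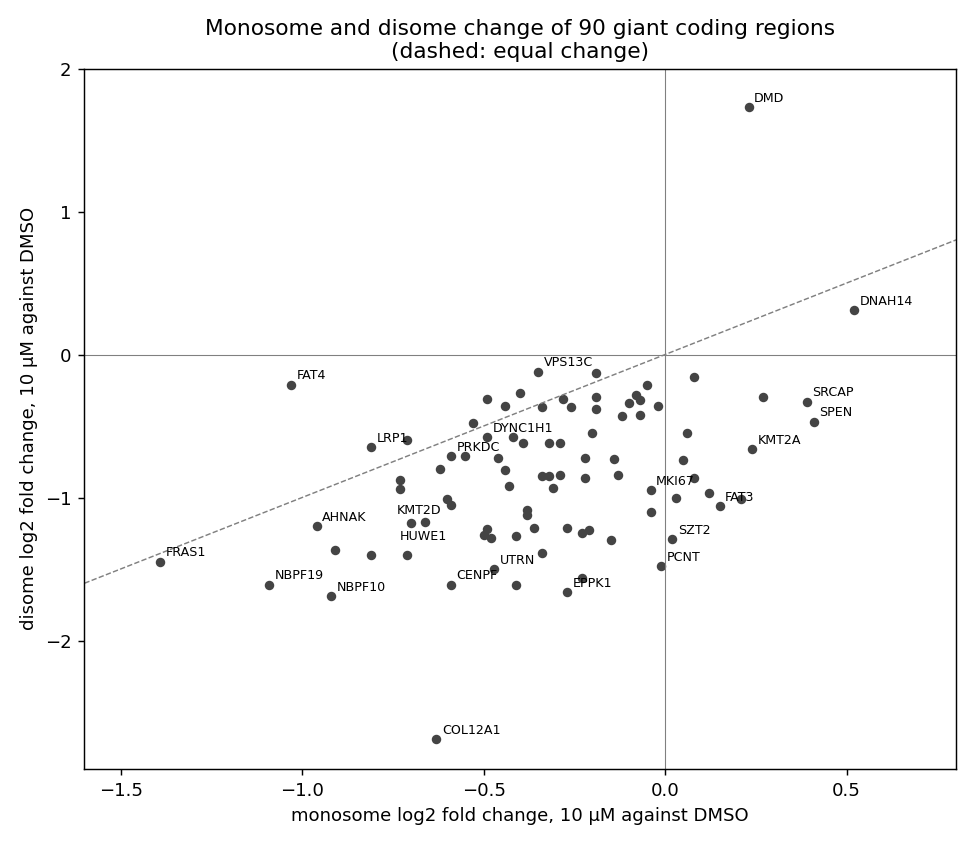
Log2 fold change at 10 µM girolline in monosome (horizontal axis) and disome (vertical axis) libraries for 90 named giant coding regions. Points below the dashed line of equal change, 80 of the 90, have a lower change in disomes than in monosomes.

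DNAH14, an axonemal dynein heavy chain, was the remaining named gene with more monosomes. It had monosome levels of 9.06, 8.01, 9.81 and 12.2 CPM (change 0.52 ± 0.13, edgeR adjusted p = 7.86e-04). Of its monosome counts, 96.1% were also held by a transcript of 454 codons nearby, 10.1% of the length of the 4516-codon row, so the value describes that stretch. Apart from these higher genes and their isoforms, 1 row was higher in monosomes, ENST00000439203.5 of 3060 codons (4.22, 4.17, 5.44 and 5.62 CPM). It was given no symbol. In the disome libraries a row of the same length, uc021zax.2, lay in the run of DST, so it may be a DST isoform. ANK2 is a further gene whose reads sat mostly in a shorter stretch: a transcript with 43.2% of its length held 94.2% of its monosome counts. ANK2 was chosen for mention by that overlap. For USP34 a transcript of 376 codons, 10.6% of its length, had 92.7% as many monosome counts and lay in the same stretch of the table, while no shorter row matched its counts in this way in RNA or disomes. Whether that row overlaps USP34 is not known.

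Footprint changes at 10 µM were lower in the longest coding regions than in those of 1000 codons, though the class from 4000 codons departed from a steady order. In monosomes 34.2% of rows from 1000 and under 2000 codons and 45.0% of rows from 2000 and under 3000 codons were lower. Of the giant rows, 63 of 106 under 4000 codons, 22 of 44 from 4000 and under 5000 codons and 20 of 32 of 5000 or more were lower. In disomes the shares of these 5 classes, in the same order, were 34.3%, 53.1%, 53.8%, 48.8% and 90.3%. The median disome changes of these classes were -0.55, -0.74, -0.84, -0.71 and -1.19. The 31 disome rows of 5000 or more codons stood lowest. That class holds fewer genes than rows, since DST, MACF1, SYNE1 and SYNE2 each give several. MDN1, RNF213 and uc031usr.1 also have a further row of this class in their run. Its share of lower rows is therefore not a share of genes. No test was made of the difference between classes.

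**Figure D5:**
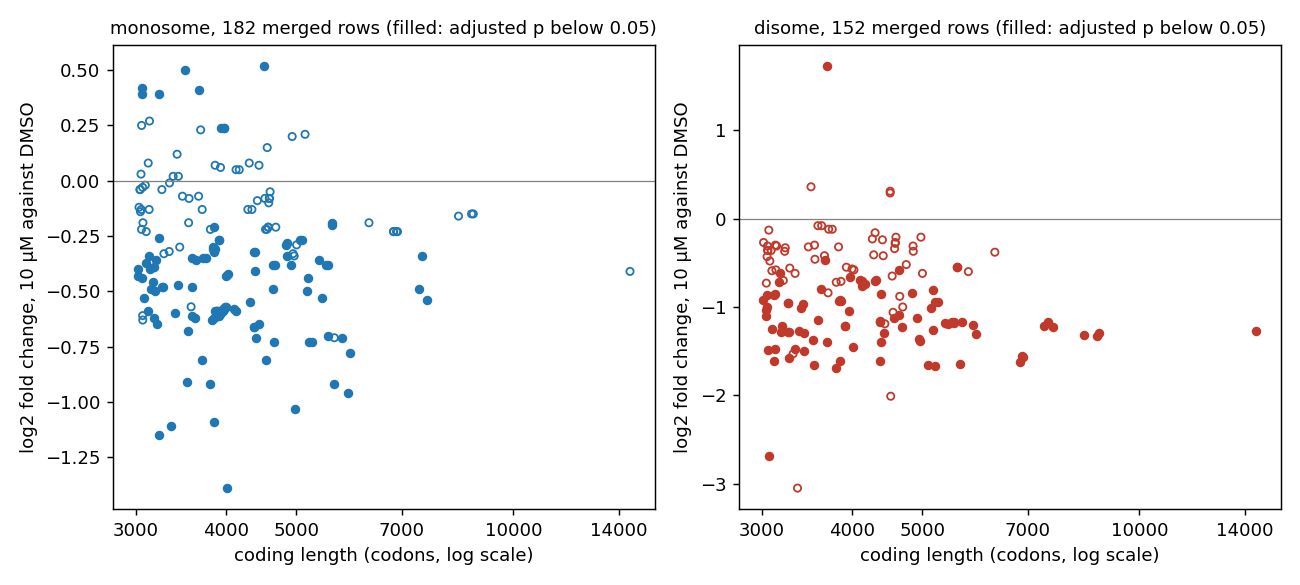
Coding length in codons (horizontal axis, log scale) against the log2 fold change at 10 µM girolline (vertical axis) for the merged giant rows in monosome (182 rows) and disome (152 rows) libraries. Filled points have an edgeR adjusted p below 0.05; above 5000 codons 28 of 31 disome rows are filled and below 0.

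In untreated cells the giant coding regions differed widely in stacked ribosomes. Per codon, the disome level divided by the monosome level had a median of 1.18 over 91 genes in DMSO. This ratio compares CPM of different kinds of library and so ranks genes without giving a share of stacked ribosomes. Monosome reads were counted over 227264 transcripts and disome reads over 182398, with different identifiers. Whether that difference moves the ranks was not tested. After the NBPF genes, described below, the highest was RYR2, a calcium release channel of the endoplasmic reticulum, at 3.95 (2.9 and 5.01 over libraries of the same DMSO number), which was chosen for mention after its value was seen. The ratio was 3.94 for PCNT, 3.76 for SPEN, 3.65 for DST, 3.59 for MKI67, 3.0 for CEP350 and 2.72 for EPPK1. Taken over libraries of the same DMSO number, PCNT gave 3.8 and 4.07 and DST 3.64 and 3.66, closer to each other than to the median. At the other end were FAT4 at 0.329 and LRP2 at 0.48. FAT4 rests on 18 disome counts.

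The NBPF rows stood far above the other named genes. NBPF10 and NBPF19, members of a primate family of repeated NBPF domains, had 168.8 and 124.5 disome CPM per 1000 codons in DMSO against 1.05 and 0.502 in monosomes. NBPF10 had disome levels of 583.3, 698.1, 349.1 and 198.2 CPM, a fall of 1.69 ± 0.15 (edgeR adjusted p = 7.51e-26). NBPF19 had 454.7, 502.2, 233.7 and 156.4 CPM, a fall of 1.61 ± 0.16 (edgeR adjusted p = 4.07e-21). How reads that map to several near-identical copies were assigned is not given in the sources used here, so values of single NBPF genes are uncertain. The row uc031usr.1, described above for RNA, had the highest disome level per codon of all members (175.4 CPM per 1000 codons in DMSO) and 807.9, 1019.4, 478.0 and 287.9 disome CPM by library. Relative to RNA at 10 µM its disome change of -0.42 was not called, while that of its neighbour uc031usp.2, -1.25, was called lower. Without the NBPF10 and NBPF19 runs, the summed disome level of the giant coding regions was 5046.6 and 5602.5 CPM in DMSO, 3552.4 CPM at 1 µM and 2662.7 CPM at 10 µM. That sum still holds the run of uc031usr.1. The row counted for this run, uc031usp.2, had 836.5, 1055.5, 499.5 and 302.8 disome CPM.

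At 1 µM fewer rows were called, and most but not all changes were smaller. Among the named genes the larger change was at 10 µM in 78 of 92 in RNA, 69 of 92 in monosomes and 72 of 90 in disomes. Some group medians were further from 0 at 1 µM. Among them were lipid transfer and membrane traffic in disomes (-0.79, beside -0.62 at 10 µM) and centrosome and mitosis in monosomes (-0.24, beside -0.04). In RNA-seq 0 of 185 rows were called in either direction, beside 0.0% of all rows; at an unadjusted p under 0.05 edgeR gave 0 higher and 1 lower, and DESeq2 called 0. In monosomes 19 of 182 rows were lower and 0 higher, where 0.689% of all rows were lower and 1.02% higher, with a median change of -0.16. In disomes 29 of 152 were lower and 0 higher, where 1.7% of all rows were lower and 5.38% higher, with a median of -0.54. Disomes relative to RNA were lower in 7 of 176 rows and higher in 0, where 0.122% and 1.71% of all rows were called. For these counts of 0 higher, edgeR gave 0 at an unadjusted p under 0.05 and DESeq2 called 0. The disome count was 14 in the joint fit with every library kept and, within that fit, 6 without the second DMSO disome library, and the count for disomes relative to RNA ran from 1 to 19 over the libraries left out. Lower calls at 1 µM were not confined to giant rows. Of rows from 2000 and under 3000 codons with at least 1 CPM, 39 of 451 were lower in monosomes and 44 of 399 in disomes. Their median changes were -0.13 and -0.38. Relative to RNA, 2 of 459 such rows had lower disomes. The difference between these rows and the giant rows was not tested.

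Of the named genes, 11 were lower in monosomes at 1 µM and 15 in disomes. Lower in both were CENPF, GOLGB1, PRKDC and DYNC1H1. AHNAK had the lowest adjusted p among the monosome calls (change -0.55, edgeR adjusted p = 1.31e-04), and RNF213, a ubiquitin ligase with AAA domains, the deepest called change (-0.62). In disomes the NBPF genes fell by 0.88 (NBPF10) and 1.03 (NBPF19), GOLGB1 by 0.90, and EPPK1 by 0.74 (edgeR adjusted p = 2.25e-04). The EPPK1 disome call was not made without the first DMSO disome library (-0.60, edgeR adjusted p = 0.0731). In CENPF and GOLGB1 the disome call was not made without the second (-0.48 and -0.74, edgeR adjusted p = 0.301 and 0.101). For PRKDC and DYNC1H1 it was already missing in the joint fit with every library kept (-0.39 and -0.50, edgeR adjusted p = 0.198 and 0.143) and with no filter on low counts (edgeR adjusted p = 0.0554 and 0.0509). Of the 15 disome calls at 1 µM, DESeq2 made 2, those of NBPF10 and NBPF19. The 1 µM and 10 µM comparisons share their DMSO libraries.

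Among giant genes with too few reads was TTN, the muscle spring titin, whose coding region of 35992 codons is the longest in the tables. It had 1, 2, 3 and 2 RNA counts, 15, 9, 18 and 8 monosome counts, and 0, 1, 0 and 0 disome counts. The matrix protein HMCN1 had 1, 4, 2 and 3 disome counts, and its monosome levels of 2.48, 2.27, 1.83 and 1.25 CPM fell by 0.92 ± 0.27 (edgeR adjusted p = 0.00529). Markers of the cell line were not analysed here, since symbols were assigned to giant coding regions alone.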

How the data were processed

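The authors deposited 1 table per library of whole-number read counts per transcript, beside a coding length in codons; per the submitters' processing notes, CASAVA 1.8 and STAR 2.7.0a were used on build hg38. How reads mapping to several places were counted is not given in the sources used here. The length column ran 20 codons short of the full coding region in RNA tables and 10 short in monosome tables, and was corrected; that it includes the stop codon was inferred. Rows with identical counts in a kind were merged.

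Counts were tested with edgeR 4.0.16 (R 4.3.3; TMM, filterByExpr, quasi-likelihood test, Benjamini-Hochberg, threshold 0.05), each kind in a fit of its 4 libraries, and disomes relative to RNA as an interaction over 8 libraries. DESeq2 1.42.0, its size factors, other filters, 1 row per run (rows within 10 coding rows), left-out DMSO libraries (RNA and disome ones tested in a fit joining both kinds, which was also run with every library kept) and a replicate block were tried. The scripts were tested on simulated data.

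Members, role lists and named genes were chosen with earlier results of these data known. By rule, the named genes are role-list members, the longest and most abundant members and the 8 highest and lowest calls per comparison; other symbols are in the plots only, and exceptions are marked. Symbols came from recalled Ensembl identifiers and lengths, after the tables (in 5 cases the values) had been seen, in place of the planned match to RefSeq proteins, which was not used here. As a check, all 70 neighbouring named genes on a chromosome followed RefSeq order (GRCh38.p14), and all 93 names were carried to the RNA and disome tables by length (86) or by length and neighbours (7).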

Additional observations from a re-analysis of the deposited data

How the results depend on the processing

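The direction of the median change was the same in all 8 comparisons under the alternatives run, and 0 of 4916 single-gene results reversed; 187 calls were lost, 97 of them with DESeq2, and 66 were gained. The cause of these shifts was not tested, except that fewer rows enter with 1 row per run and with a mean of at least 10 CPM. With DESeq2, RNA at 10 µM had 2 rows higher and 0 lower; monosomes had 3 higher and 26 lower at 10 µM and 6 lower at 1 µM (adjusted p given for 16 rows only); disomes had 0 higher and 38 lower at 10 µM and 4 lower at 1 µM; disomes relative to RNA had 0 higher at 10 µM and 1 lower at 1 µM. With DESeq2's size factors in edgeR, 5 monosome rows were higher at 10 µM. With 1 row per run, 0 RNA rows were lower at 10 µM, 4 monosome rows were higher and 53 lower at 10 µM and 11 lower at 1 µM, 55 disome rows were lower at 10 µM and 17 at 1 µM, and 60 were lower relative to RNA at 10 µM. For disomes relative to RNA, rows tied for the top level of a run were all kept, so 106 rows stood for 98 runs. At a mean of at least 10 CPM, RNA had 3 higher and 0 lower, monosomes 58 lower, disomes 0 higher and disomes relative to RNA 0 higher at 10 µM and 12 lower at 1 µM. With all RNA and disome libraries in 1 fit, 14 disome rows were lower at 1 µM. Within that joint fit, leaving out a DMSO library gave 3 to 8 RNA rows higher and 1 to 2 lower at 10 µM, and 0 to 1 lower at 1 µM. For disomes it gave 73 to 94 lower at 10 µM and 6 to 20 at 1 µM. Disomes relative to RNA had 0 to 1 higher and 91 to 112 lower at 10 µM, and 1 to 19 lower at 1 µM. Monosome libraries left out gave fold changes with no test. The DMSO numbers do not pair RNA and disome libraries by the labels, and their deviations correlated at 0.079; with the number as a replicate block, 26 rows were lower relative to RNA at 1 µM. The lower depth of the disome libraries limits genes of few disome counts such as COL12A1 and DMD.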
